A study of Homo sapiens with 8 samples.

Results

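Interferon-stimulated genes are the genes that a cell switches on when interferon reaches it, and their products block virus replication and shape the immune response. Here 9 of them, ISG15, IFI6, IFIT1, IFIT2, IFIT3, MX1, OAS1, IRF1 and IFI27, were followed out of the 58735 genes in the deposited tables. They were chosen by name as widely used readouts of interferon signalling, and all 9 passed the filter on low counts. RNA came from BEAS-2B, an established human bronchial epithelial cell line that was virally immortalized, so that a single line stands for the airway epithelium. Cells on collagen-coated inserts met either humidified clean air (CA) or air carrying formaldehyde at 1 ppm (FA) for 2 h, and both treatments were followed by 6 h of recovery. RNA depleted of ribosomal RNA was sequenced as input (CA_IN and FA_IN), and a fraction of the same RNA was sequenced after immunoprecipitation with an antibody against 8-oxo-7,8-dihydroguanosine (8-oxoG), a common oxidized base in RNA (CA_IP and FA_IP). Each of the 4 groups held 2 replicate libraries.

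In the textbook pathway, type I and type III interferons bind their receptors, the kinases JAK1 and TYK2 pass the signal on, and a complex that holds STAT2 and IRF9 binds interferon-stimulated response elements (ISRE). Interferon gamma acts at gamma-activated sites (GAS). IRF1 is itself a transcription factor induced through a GAS, and airway epithelium keeps part of the program on at a low level without infection.

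The promoters of the members are shown for their ISRE and GAS letters. The members were chosen as readouts of interferon signalling, which acts at such sites, so the choice was not independent of these letters. In the RefSeq promoter table (GRCh38.p14), which reaches from 250 bases before a start site to 50 after it, windows were matched for 8 of the 9 members, all but IFIT2. The core of an ISRE, read on both strands as GAAA, any 2 bases and again GAAA, was found for 6 of the 8 members (75%), namely ISG15, IFI6, IFIT1, IFIT3, MX1 and IFI27. It was found for 4.38% of the 27305 genes in the table and in 3.57% of its 35116 windows. The GAS letters TTCNNNGAA were found for MX1, OAS1, IRF1 and IFI27, against 9.38% of all genes. In the stretches that follow, written in the direction of transcription, capitals mark the ISRE core chosen for display, or for IRF1 the GAS. Further ISRE or GAS matches within a stretch are not marked. All lie upstream of the RefSeq start site of their window and outside annotated exons. Those of ISG15, IFIT3, MX1, IFI27 and IRF1 lie within the gene spans given in the next paragraph. For these members the start site used is thus not the outermost start of the gene. Only those of IFI6 and IFIT1 lie upstream of the whole gene span. A match of letters is no evidence of binding.
ISG15, chr1:1013375-1013414, plus strand: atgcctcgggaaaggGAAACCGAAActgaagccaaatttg
IFI6, chr1:27672283-27672322, minus strand: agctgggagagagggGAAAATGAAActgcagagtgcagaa
IFIT1, chr10:89392492-89392531, plus strand: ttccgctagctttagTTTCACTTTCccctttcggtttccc
IFIT3, chr10:89327860-89327899, plus strand: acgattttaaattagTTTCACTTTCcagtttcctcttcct
MX1, chr21:41431839-41431878, plus strand: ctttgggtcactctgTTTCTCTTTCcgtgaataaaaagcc
IFI27, chr14:94110626-94110665, plus strand: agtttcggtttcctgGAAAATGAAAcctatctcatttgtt
IRF1, chr5:132490874-132490912, minus strand: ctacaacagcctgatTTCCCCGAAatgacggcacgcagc
IFIT1 and IFIT3 held the same 10 letters, TTTCACTTTC, and IFI6 and IFI27 shared GAAAATGAAA. ISG15 held overlapping matches, of which the one nearer to the start is shown, and IFI6 held 3 matches. IFIT1, IFIT3, MX1 and IFI27 held further ISRE matches as well, and those of IFIT1 and IFI27 include letters in the stretches shown. Among 41 further interferon-stimulated genes, windows were matched for 33, and 22 of these (66.7%) held the ISRE core.

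On GRCh38, with the spans of GENCODE 44, ISG15 lies at chr1:1001138-1014540 and IFI6 at chr1:27666064-27672212. The IFIT genes are neighbours, IFIT2 at chr10:89283694-89309271, IFIT3 at chr10:89327307-89377473 and IFIT1 at chr10:89392546-89406487. MX1 lies at chr21:41420020-41470071, OAS1 at chr12:112905856-112933219, IRF1 at chr5:132440440-132508719 and IFI27 at chr14:94104836-94116695. IFI6 and IRF1 are on the minus strand and the others on the plus strand. All members but IFI27 overlap a gene on the opposite strand, TMPRSS2 in the case of MX1.

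Sequencing depth ran from 26152651 to 45144392 expected counts in input and from 16883500 to 23658012 in immunoprecipitated RNA. The members had between 51 and 2022.96 expected counts per library, so that the precision differed widely among them. Mitochondrial genes took 13.54% to 14.84% of the counts in input and 9.599% to 11.33% in immunoprecipitated RNA. All 6 epithelial markers were measured, with a summed level of 538 to 713 TPM (a gene's share of all transcripts, counted per length) in the inputs. Of 6 leukocyte markers only CD14 passed the filter, and PTPRC (CD45) had 0 to 2 counts per library. Of 5 fibroblast markers 3 passed, while DCN and LUM had 0 to 3 counts per library. In such bulk RNA, fewer expressing cells and less RNA per cell cannot be told apart.

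In clean air the members were detected at low to moderate levels that spread over a wide range. ISG15, a ubiquitin-like protein that is conjugated to other proteins, was highest, with 17.0 and 14.5 TPM in the 2 CA_IN libraries (15.8 ± 1.72, SD, n = 2). IFI6, a small membrane protein that counters virus replication and cell death, had 10.6 ± 0.0414 TPM (SD, n = 2). IRF1 had 9.76 ± 0.509 TPM (SD, n = 2). These levels stood at the 88.3rd (ISG15), 83.3rd (IFI6) and 82.1st (IRF1) percentile of the 18242 genes tested.

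The other 6 members were lower. IFI27, a relative of IFI6 that acts at mitochondrial membranes, had 3.56 ± 0.110 TPM (SD, n = 2). The IFIT proteins bind foreign RNA and block its translation, and IFIT3 had 1.54 ± 0.0665, IFIT2 1.21 ± 0.290 and IFIT1 0.958 ± 0.0146 TPM (SD, n = 2 each). OAS1, which makes the oligoadenylates that activate RNase L, had 1.18 ± 0.299 TPM, and MX1, a dynamin-like GTPase that traps viral nucleocapsids, had 0.789 ± 0.252 TPM (SD, n = 2 each). The 2 libraries of neighbouring genes in this order overlapped for IFIT2 with OAS1, OAS1 with IFIT1, and IFIT1 with MX1, and lay apart for the other neighbours. From IFIT3 down, all of these lay between the 38.9th (MX1) and 48.3rd (IFIT3) percentile. The members together summed to 46.6 and 44.1 TPM in the 2 libraries.

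The genes upstream of the members were measured from lists of pathway genes. Of 21 interferon genes, 7 had no count in any library, 10 had counts but did not pass the filter, and 4 were tested. IFNB1, a type I interferon of infected epithelial cells, had 0 or 1 count per library, and IFNG had 0 counts in every library, which allows no more than 3 counts in each. IFNE, a type I interferon of epithelia, was the best measured with 38 to 130 counts per library. IFNA1 had 9.69 to 29.99 counts, which the near-identical IFNA genes could share. In contrast, all 6 receptor genes and all 6 relay genes passed the filter, though not all were above the interferon genes in level. The lowest receptor gene, IFNLR1, had 0.442 TPM in CA_IN and the lowest relay gene, JAK2, 0.874 TPM, both below IFNE (0.916 TPM). In CA_IN the chains of the interferon gamma receptor had 10.0 TPM (IFNGR1) and 10.0 TPM (IFNGR2), and those of the type I receptor had 3.30 TPM (IFNAR1) and 0.966 TPM (IFNAR2). STAT2 had 8.33 and IRF9 2.55 TPM. UBE2L6, the conjugating enzyme for ISG15, had 11.3 TPM.

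**Figure D1:**
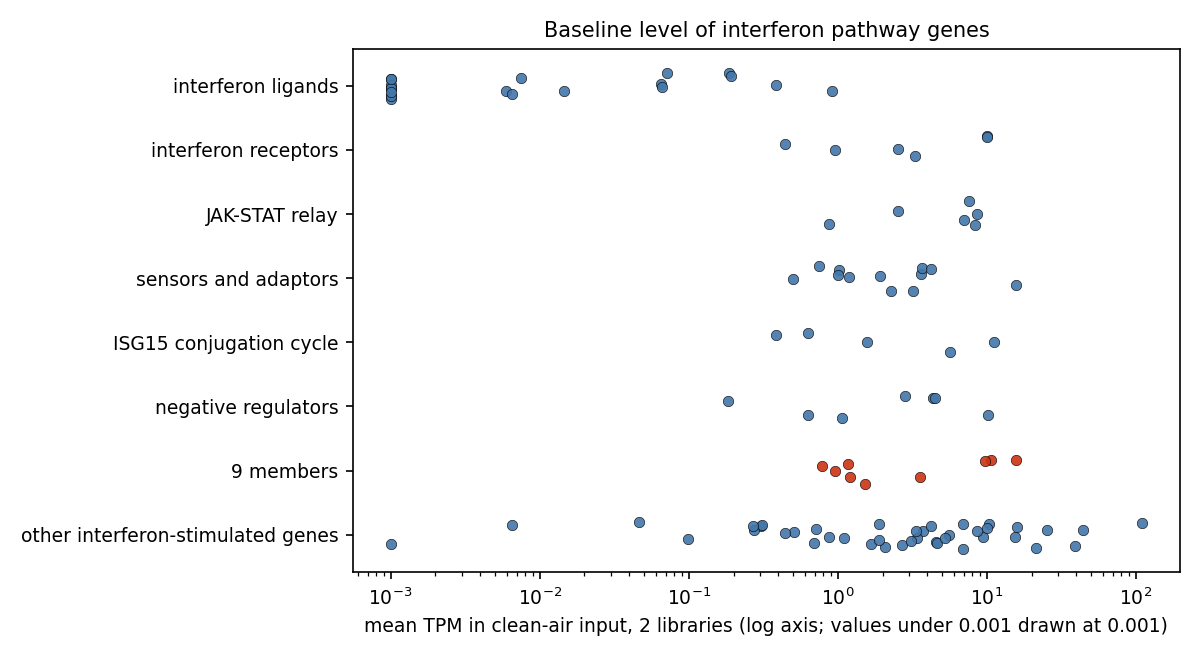
Mean level in the 2 CA_IN libraries, in TPM on a log axis, with a point for each gene of the interferon pathway lists and the 9 members in red; genes without a measurable level are drawn at the left end. The members run from 0.789 (MX1) to 15.8 (ISG15), within the range of the other interferon-stimulated genes, and the 21 interferon genes lie at or below 0.916 (IFNE).

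The effect of formaldehyde on steady-state RNA was addressed by the comparison of FA_IN with CA_IN. Values are CPM, a gene's share of the library's counts after TMM scaling (edgeR's correction for composition), and tests are edgeR's quasi-likelihood test with Benjamini-Hochberg adjustment over 18242 genes. None of the 9 members passed an adjusted p of 0.05. In this comparison 1 gene of all those tested did, a share of 0.00548%. The member furthest from 0 was IRF1, which had 46.5 and 45.7 CPM in CA_IN and 37.3 and 35.9 CPM in FA_IN. Its groups did not overlap, and its level after formaldehyde was 0.794-fold that in clean air, with a 95% interval of 0.671 to 0.940. Its log2 difference was -0.33 (SE 0.107), with an unadjusted p of 0.0131 and an adjusted p of 0.945 by edgeR. It was the 1 member with an unadjusted p under 0.05, a limit passed by 3.35% of all genes.

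The difference for IRF1 was close in size in both replicates and both fractions. On the log2 scale, FA minus CA was -0.317 and -0.347 in input and -0.435 and -0.422 in immunoprecipitated RNA, which is a fraction of the same RNA and no independent sample. IRF1 had 55.1 and 48.9 CPM in CA_IP and 40.8 and 36.5 CPM in FA_IP. Of all genes tested, 6.17% were lower in formaldehyde without overlap in both fractions. The gene span of IRF1 overlaps that of IRF1-AS1 on the opposite strand, and no strand setting was stated for the counting. Reads from any exon sequence that both genes share could then not be told apart, and overlap of exons was not checked. The most abundant IRF1 transcript, IRF1-202, held 44.6% to 55.6% of the gene's counts. Its log2 difference between FA_IN and CA_IN was -0.45 (SE 0.185, unadjusted p = 0.0515 by edgeR). The next in abundance, IRF1-201, held 19.6% to 27.2% and had a smaller log2 difference of -0.17 (SE 0.204).

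ISG15 had 20.1 and 17.8 CPM in CA_IN and 22.3 and 18.4 CPM in FA_IN, and the groups overlapped. IFI6 had 18.1 and 18.9 CPM in CA_IN and 19.6 and 19.5 CPM in FA_IN, which did not overlap but differed by only 0.08 on the log2 scale (SE 0.115). IFI6 and IRF1 were the 2 members of 9 without overlap, against 33.9% of all genes. The share among the members was thus close to that among all genes.

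The 3 IFIT genes, which lie next to one another on chromosome 10, had log2 differences of -0.09 (IFIT1, SE 0.174), 0.06 (IFIT2, SE 0.207) and -0.14 (IFIT3, SE 0.157). IFIT2 had 11.9 and 9.10 CPM in CA_IN and 10.2 and 11.7 CPM in FA_IN. IFIT3 had 9.28 and 10.2 CPM in CA_IN and 7.86 and 9.69 CPM in FA_IN. The ranges of both genes overlapped, and IFIT1 overlapped as well, with 4.92 in both CA_IN libraries and 5.12 and 4.16 CPM in FA_IN. LIPA lies across all 3 genes on the opposite strand.

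MX1 had 3.54 and 5.60 CPM in CA_IN and 3.66 and 5.81 CPM in FA_IN. Here the 2 replicates of a treatment were far apart while the treatments were alike at each replicate number, and the log2 difference of 0.07 had an interval of -0.808 to 0.943. OAS1 had 3.68 and 5.14 CPM in CA_IN and 4.03 and 4.97 CPM in FA_IN, and IFI27 had 3.26 and 3.03 CPM in CA_IN and 3.66 and 3.18 CPM in FA_IN. Their log2 differences were 0.04 (OAS1, SE 0.231) and 0.11 (IFI27, SE 0.211). Over the 9 members the median log2 difference was 0.06, beside 0.02 over all genes tested. The intervals of the members other than MX1 lay within -0.575 (IRF1) and 0.595 (IFI27) on the log2 scale.

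**Figure D2:**
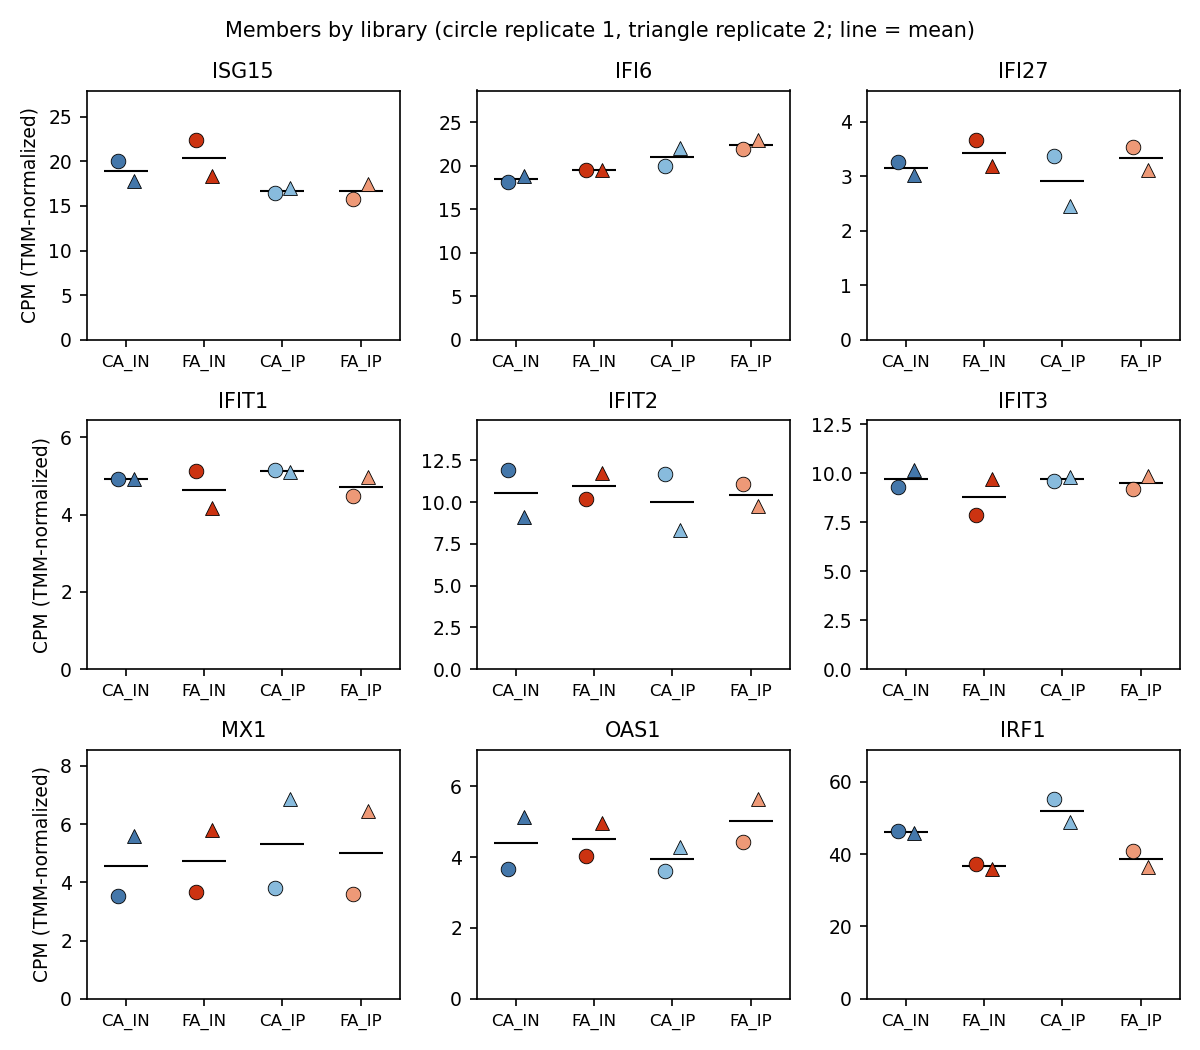
CPM of the 9 members in each of the 8 libraries, by group, with a circle for replicate 1, a triangle for replicate 2 and a line at the mean. IRF1 is lower in FA_IN than in CA_IN in both replicates, and the 2 replicates of MX1 are far apart in every group.

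None of the tested interferon genes (4), receptors (6), relay genes (6), sensors and adaptors (12), genes of the ISG15 cycle (5), negative regulators (7) or further interferon-stimulated genes (38) passed an adjusted p of 0.05 between FA_IN and CA_IN. STAT2 had a log2 difference of 0.01 (SE 0.135). Of the negative regulators, TRIM21, an E3 ligase that damps IRF signalling, had the only unadjusted p under 0.05, with a log2 difference of -0.66 (SE 0.211, adjusted p = 0.945 by edgeR). Whether TRIM21 passed depended on the model. It did so only with the library number as a block, given in the closing section, and these numbers are not stated to pair the samples. Among the 38 further genes the median log2 difference was 0.07, with 23 above 0 and 15 below.

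Whether members were more or less abundant in the immunoprecipitated RNA than in its input was tested within each treatment. In clean air 0 of the 9 members were called, against 1.91% of all genes, and after formaldehyde 0 of 9, against 1.5%. Because input and immunoprecipitated RNA were split from the same pool, a fit with the RNA pool as a block was also made. It called 17.4% of all genes in clean air and 10.1% after formaldehyde, and still 0 of the 9 members in either. The log2 differences of the members ran from -0.18 (ISG15) to 0.22 (MX1) in clean air and from -0.29 (ISG15) to 0.20 (IFI6) after formaldehyde. Their medians were -0.00397 and 0.0764, beside 0.0163 and 0.00350 over all genes. Scaling by library size in place of TMM raised the median of all genes to 0.16 in clean air and 0.17 after formaldehyde, and all these values are relative to the TMM scale.

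ISG15 had 16.4 and 17.0 CPM in CA_IP and 15.8 and 17.5 CPM in FA_IP, below its input in all 4 pools. Its log2 difference was -0.18 (SE 0.143) in clean air and -0.29 (SE 0.144) after formaldehyde. With the pool as a block the latter was -0.27 (SE 0.104), with an unadjusted p of 0.0158 and an adjusted p of 0.110 by edgeR. ISG15 has the shortest main transcript of the members, with 637 bases. It also has the highest G content, 34.7%, which is the 99.0th percentile of the genes tested. The main transcripts of IFI27 and IFI6 were short as well, with 652 and 812 bases. The part of length or G content in these differences was not tested. IFI6, unlike ISG15, was above its input in all 4 pools, with 20.0 and 22.1 CPM in CA_IP and 21.9 and 22.9 CPM in FA_IP. Its log2 differences were 0.19 (SE 0.116) and 0.20 (SE 0.116), and with the block the adjusted p was 0.142 in clean air and 0.168 after formaldehyde.

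IRF1 was above its input in all 4 pools as well, by 0.17 (SE 0.107) in clean air and 0.08 (SE 0.108) after formaldehyde on the log2 scale, and the blocked adjusted p in clean air was 0.117. These 3 members, ISG15, IFI6 and IRF1, were the ones with the same direction in all 4 pools, against 40.9% of all genes. For the other 6 the direction varied among pools. The libraries of input and immunoprecipitated RNA did not overlap for 4 members in clean air (ISG15, IFI6, IFIT1 and IRF1), against 41% of all genes, and for 2 after formaldehyde (ISG15 and IFI6), against 37.4%. Between FA_IP and CA_IP they did not overlap for IFIT1, OAS1 and IRF1, against 33% of all genes. IFIT1 had 5.16 and 5.11 CPM in CA_IP and 4.48 and 4.97 CPM in FA_IP. IFIT2 had 11.7 and 8.30 CPM in CA_IP and 11.1 and 9.74 CPM in FA_IP, and IFIT3 had 9.59 and 9.79 CPM in CA_IP and 9.18 and 9.86 CPM in FA_IP. IFIT2, IFIT3 in clean air, and IFI27 changed sign when libraries were scaled by size.

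MX1 had 3.80 and 6.85 CPM in CA_IP and 3.60 and 6.45 CPM in FA_IP. OAS1 had 3.59 and 4.29 CPM in CA_IP and 4.42 and 5.63 CPM in FA_IP. IFI27 had 3.38 and 2.46 CPM in CA_IP and 3.54 and 3.12 CPM in FA_IP. None of these was set apart from its input by more than the spread between replicates. The difference between treatments in recovery by the antibody, tested as an interaction, lay between -0.13 (MX1) and 0.32 (OAS1, SE 0.335) on the log2 scale, and 0 members and 0 genes of 18242 passed with edgeR, while 195 genes had an unadjusted p under 0.05 and DESeq2 called 3. With the pool as a block 0.137% of all genes and 0 members passed.

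**Figure D3:**
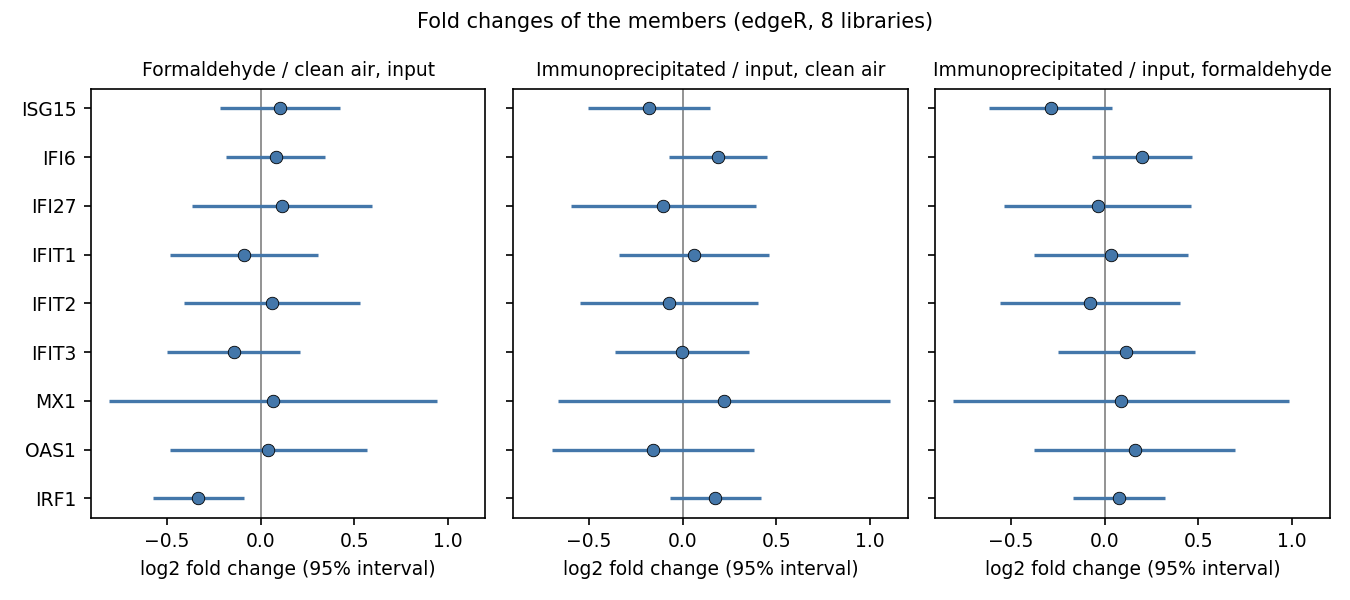
Log2 fold change of the 9 members by edgeR in FA_IN against CA_IN (left), CA_IP against CA_IN (middle) and FA_IP against FA_IN (right), with 95% intervals. All intervals cross 0 but that of IRF1 in FA_IN against CA_IN, which runs from -0.575 to -0.0889.

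Among the 38 further interferon-stimulated genes that were tested, 0 were higher and 2 lower in CA_IP, beside 0.148% and 1.77% of all genes, and 0 were higher and 1 lower in FA_IP, beside 0.0329% and 1.47%. With the pool as a block 8 were higher and 6 lower in clean air, beside 11.6% and 5.85% of all genes. After formaldehyde 6 were higher and 5 lower, beside 5.45% and 4.6%. The IFITM genes encode membrane proteins that stop virus entry, and had 110 TPM (IFITM3), 44.5 TPM (IFITM2) and 21.5 TPM (IFITM1) in CA_IN. In clean air IFITM1 had 33.9 and 42.8 CPM in input but 11.4 and 15.8 CPM after immunoprecipitation. After formaldehyde its input had 35.4 and 42.0 CPM and its immunoprecipitated RNA 14.0 and 16.6 CPM. The immunoprecipitated libraries lay far below all of the inputs.

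IFITM1 fell to 0.354-fold of its input in clean air (95% interval 0.261 to 0.479, adjusted p = 0.00368 by edgeR) and 0.396-fold after formaldehyde (0.293 to 0.535, adjusted p = 0.00847 by edgeR). The call in formaldehyde was lost without any 1 of the 4 FA libraries, with adjusted p from 0.0553 to 0.0981, and the log2 difference then ran from -1.44 to -1.19. IFITM2 fell by 0.72 on the log2 scale in clean air (adjusted p = 0.0498 by edgeR), a call lost without any 1 of the 6 CA and FA_IN libraries, with adjusted p from 0.0730 to 0.258, and with edgeR on the 4 libraries of the comparison (0.0958). After formaldehyde IFITM2 had a log2 difference of -0.66 (adjusted p = 0.0882). IFITM3 had log2 differences of -0.60 (adjusted p = 0.309) and -0.63 (adjusted p = 0.396), and with the pool as a block all 3 genes were called lower in both treatments. The IFITM genes are close copies of one another, so that the division of reads among them is uncertain. LY6E, named here after its values were seen, was on the other side, with 1.33-fold in clean air and 1.28-fold after formaldehyde, and was called with the block. The epithelial marker KRT8 was also higher in CA_IP, by 0.41 on the log2 scale (adjusted p = 0.0347 by edgeR), a call lost without any 1 library (adjusted p from 0.0600 to 0.360) or with edgeR or DESeq2 on the 4 libraries (0.135 and 0.191), and with the block 4 of 6 epithelial markers were higher in both treatments. The part of the markers in these differences was not tested.

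**Figure D4:**
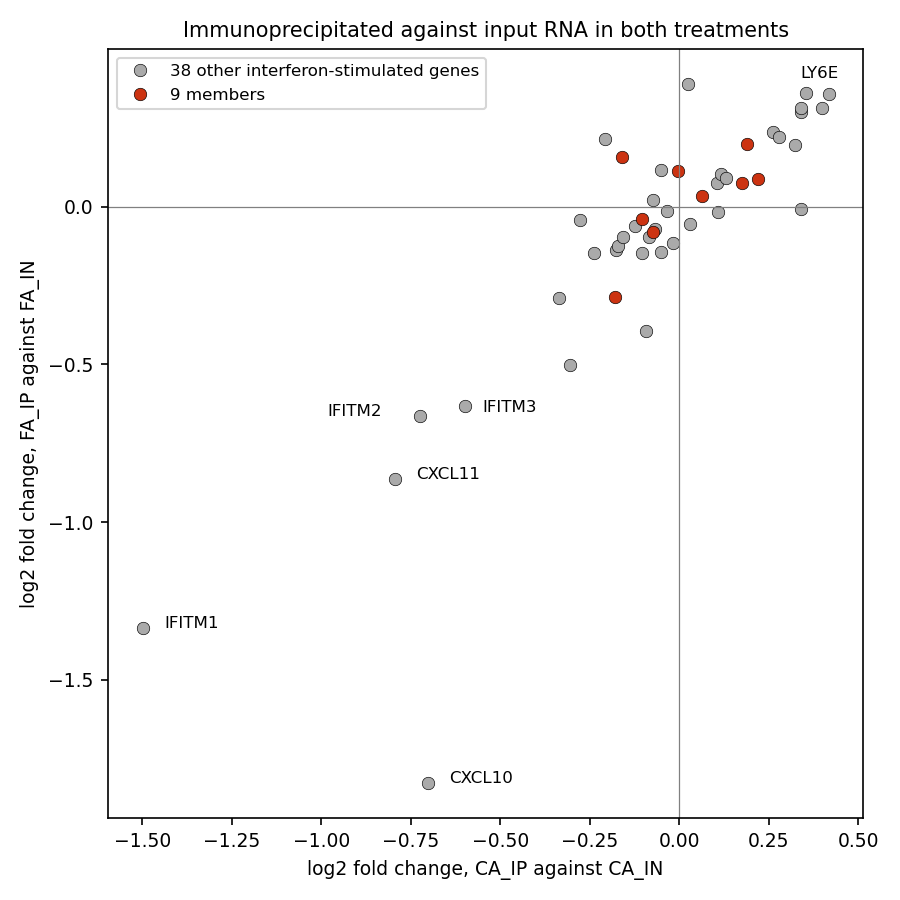
Log2 fold change of immunoprecipitated over input RNA in clean air (x axis) and after formaldehyde (y axis), from edgeR, for the 9 members in red and 38 further interferon-stimulated genes in grey. The members lie near the origin, between -0.29 and 0.22, while IFITM1 lies at -1.50 and -1.34. CXCL10, at the bottom, had 70 counts over all 8 libraries and was not called.

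The widest spread among the members lay between replicates of a group. MX1 was higher in replicate 2 than in replicate 1 in all 4 groups, by 0.663 to 0.848 on the log2 scale, and OAS1 likewise by 0.257 to 0.483 and IFIT3 by 0.0294 to 0.301. IRF1 and IFI27 were lower in replicate 2 in all 4 groups, by a log2 difference of -0.174 to -0.0243 and of -0.458 to -0.105. Thus 5 of 9 members kept their direction in all groups, against 39.3% of all genes. The 4 groups rest on 2 pairs of RNA pools, since each immunoprecipitated library was drawn from its input's pool.

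The further interferon-stimulated genes leaned one way. Of the 38, 27 (71.1%) were higher in replicate 2 in all 4 groups and 2 (5.26%), IFIT5 and ZC3HAV1, were lower, beside 18.2% and 21.1% of all 18242 genes. XAF1, a pro-apoptotic protein, was higher by 0.889 to 1.55, IFI44L by 0.507 to 0.973, GBP1, a guanylate-binding GTPase, by 0.648 to 0.869, and OAS2, a sister of OAS1, by 0.596 to 0.854 on the log2 scale. These 4 were named after their values were seen. In the same libraries 3 of 6 epithelial markers were also higher in replicate 2 in every group, KRT5 by 0.421 to 0.751, KRT19 by 0.291 to 0.527 and KRT18 by 0.0266 to 0.174, and the other 3 (KRT8, EPCAM and CDH1) changed sign among groups. Of the fibroblast markers tested, 2 of 3 (COL1A2 and PDGFRB) were higher in every group, as was CD14, the 1 leukocyte marker tested. Mitochondrial genes took a larger share in replicate 2 of every group. Replicate 2 had fewer total counts in clean air and more after formaldehyde. The labels do not say whether the numbers mark a shared day, and the part of each of these in the difference was not tested.

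**Figure D5:**
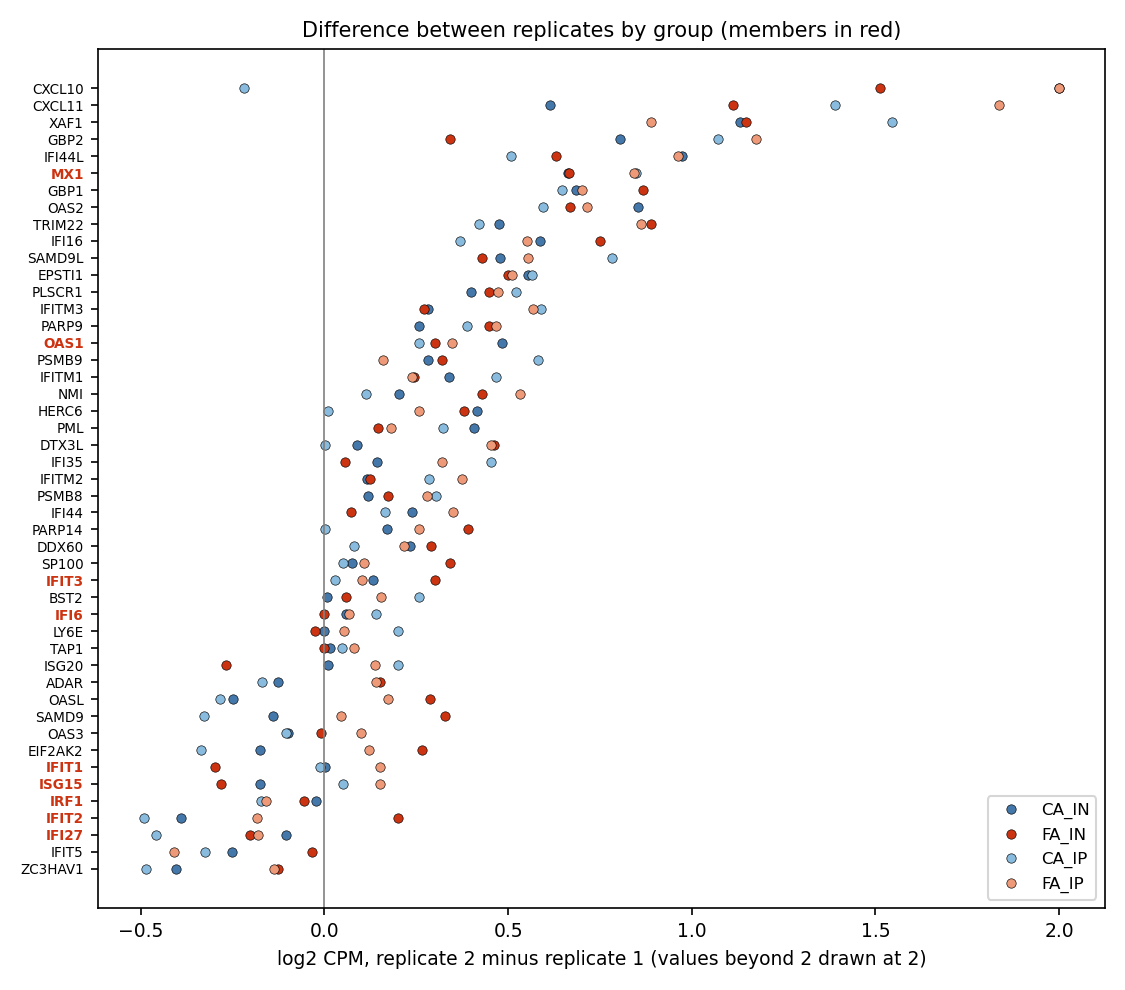
Log2 difference of replicate 2 from replicate 1 in each of the 4 groups (colours), for the members (names in red) and the 38 further genes, with values beyond 2 drawn at 2. MX1, OAS1 and IFIT3 are above 0 in every group, and IRF1 and IFI27 are below it.

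At the level of transcripts, 69 transcripts of the members were in the tables and 33 passed the filter. Of these, 0 were called in any of the 4 comparisons by edgeR. Among all 67873 transcripts tested, 164 were called in CA_IP against CA_IN and 98 in FA_IP against FA_IN. In FA_IN against CA_IN and in the interaction 0 were called. With calls this rare, the 0 does not set the members apart. At an unadjusted p under 0.05 by edgeR, 1 member transcript passed in FA_IN against CA_IN and 2 in FA_IP against FA_IN. The share of all transcripts at that limit was not counted, so these counts do not set the members apart either. One transcript held most of the counts of ISG15 (ISG15-203, 79.3% to 92.5% over the 8 libraries), IFI6 (IFI6-202, 69.3% to 82.1%), IFIT1 (IFIT1-201, 75.8% to 92.5%) and MX1 (MX1-202, 63.1% to 90.4%). The counts were divided more evenly in OAS1 (OAS1-203, 38.6% to 56.9%) and IFI27 (36.9% to 53.5% for its leading transcript). The leading transcripts of IFIT2 (IFIT2-201, 33.9% to 76.8%) and IFIT3 (IFIT3-202, 28.6% to 74.9%) changed share widely between libraries.

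The mean profile of the 9 members over the 8 libraries, each gene standardised on the log2 CPM scale, was most like that of RABL2B (r = 0.980), GJD3-AS1 (r = 0.946), ENSG00000261737 (r = 0.942), LINC01431 (r = 0.942) and USB1 (r = 0.933). That mean ran only from -0.174 (FA_IP replicate 1) to 0.335 (FA_IP replicate 2), and single members differed in opposite directions between replicates. The correlations thus describe a small average and not a pattern that all members share. The 8 libraries come from 4 RNA pools, and these 5 genes are the highest of the many compared.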

How the data were processed

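Expression was measured by RNA sequencing in 8 libraries of BEAS-2B cells, grouped by the labels into CA_IN, FA_IN, CA_IP and FA_IP with 2 replicates each, described as biological duplicates and numbered here in accession order (numbers 1 and 3 in the file names). P-values measure only the spread between these samples. Per the labels and the study's methods, the authors removed ribosomal RNA, made libraries with a small-RNA kit, aligned reads with STAR 2.6.0a to GRCh38 with Ensembl 94, and deposited RSEM 1.2.25 expected counts per transcript, not normalized. The authors also deposited effective lengths, used here only for TPM. TPM was recomputed from expected counts and effective lengths, and where above 1 it differed by at most 2.18% from the TPM the authors deposited. The sources name 2 different antibody clones, so the clone is not certain. Tables of the authors' DESeq2 comparisons hold fold changes and p-values and were not used. No strand setting was stated for RSEM.

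Expected counts were summed by gene and rounded, and the 18242 genes that reached 10 in 2 or more libraries were compared using edgeR 4.0.16 and limma 3.58.1 in R 4.3.3 (TMM, prior count 0.125, quasi-likelihood, common dispersion 0.0190). All 8 libraries shared 1 fit, calls used an adjusted p of 0.05, and intervals are 95%. TPM is used only for levels of different genes. Gene positions came from GENCODE 44, as did the transcript sequences that gave the lengths in bases and the G content. The study's methods state that each RNA pool was split into input and immunoprecipitated fractions. Over 8939 genes, deviations of same-numbered libraries from their group means correlated at 0.783 (CA) and 0.666 (FA) between fractions, and a fit with the RNA pool as a block was therefore given beside the results.

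Named genes were all members, and from each other list the 2 with the highest TPM and every called gene, and the 5 genes most like the members' profile. One gene that this rule names is not reported here. The members and lists were chosen with earlier results of these data known. Alternatives were DESeq2 1.42.0 on 8 or 4 libraries, library size scaling, no filter, edgeR on 4 libraries, blocks, and leaving out each replicate. The tests were tried on simulated counts.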

Additional observations from a re-analysis of the deposited data

How the results depend on the processing

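No member was called under any alternative tried, and the lowest adjusted p was 0.0643, for IRF1 in FA_IN against CA_IN with a replicate block (the library number). Of 513 alternative values for the 36 member results, 462 kept their direction and 51 turned it, and the results that turned had a main log2 difference of at most 0.219 in size. The cause was not tested for any of these.

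The count of all genes called depended on the model. FA_IN against CA_IN gave 1 gene (611 at an unadjusted p under 0.05), 3 with DESeq2 on 8 libraries (339 unadjusted), 3 with DESeq2 on 4, 100 without a filter, 0 with edgeR on 4 libraries (662 unadjusted), 258 with the replicate block, and 0 to 1 without each replicate. CA_IP against CA_IN gave 349, 1157 with library size, 686 without a filter, 1941 with the replicate block, 3178 with the pool block, and 196 to 317 without each replicate. FA_IP against FA_IN gave 274, 561, 578, 953 and 1835 in the same order, and 121 to 282 without each replicate. The lowest counts came without CA_IP replicate 1 (196) and FA_IN replicate 1 (121). The interaction gave 0 (195 unadjusted), 3 with DESeq2, 52 without a filter, 3 with the replicate block, 25 with the pool block, and 0 to 5 without each replicate. Genes higher and lower were 27 and 322 in clean air with TMM, and 821 and 336 with library size, 1235 and 706 with the replicate block and 2111 and 1067 with the pool block. After formaldehyde they were 6 and 268 with TMM, 318 and 243 with library size, 367 and 586 with the replicate block and 995 and 840 with the pool block. The library numbers are not stated to pair the samples. The paper describes clean-air and formaldehyde chambers run in parallel, but does not say that the numbers mark shared exposures. Between treatments, same-numbered libraries correlated at 0.532 in input and 0.592 in immunoprecipitated RNA, and the replicate block called 0 members. TRIM21 passed in FA_IN against CA_IN only with the replicate block (adjusted p = 0.0271 by edgeR).

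Turned log2 differences with library size were 0.0755 (IFIT2), 0.143 (IFIT3) and 0.0452 (IFI27) in clean air, and 0.0918 (IFIT2) and 0.133 (IFI27) after formaldehyde. That of IFIT2 in the interaction turned to 0.00424 with DESeq2, 0.0163 with library size and 0.0138 without a filter. Without each replicate, FA_IN against CA_IN ran from -0.0560 to 0.217 (ISG15), -0.254 to 0.0340 (IFIT1), -0.127 to 0.269 (IFIT2), -0.341 to 0.426 (MX1) and -0.184 to 0.292 (OAS1). CA_IP against CA_IN ran from -0.343 to 0.149 (IFIT2), -0.0687 to 0.0509 (IFIT3), -0.260 to 0.588 (MX1), -0.384 to 0.0881 (OAS1) and -0.356 to 0.102 (IFI27). FA_IP against FA_IN ran from -0.0941 to 0.193 (IFIT1), -0.171 to 0.0454 (IFIT2), -0.0152 to 0.295 (IFIT3), -0.390 to 0.487 (MX1), -0.0122 to 0.340 (OAS1), -0.00487 to 0.175 (IRF1) and -0.127 to 0.0729 (IFI27). The interaction ran from -0.204 to 0.0698 (ISG15), -0.0591 to 0.0819 (IFI6), -0.134 to 0.154 (IFIT1), -0.228 to 0.264 (IFIT2), -0.589 to 0.347 (MX1), -0.182 to 0.0240 (IRF1) and -0.140 to 0.318 (IFI27). Over the 4 input libraries the mean level was 10.7 TPM (IFI6), 0.907 TPM (IFIT1), 1.43 TPM (IFIT3) and 8.61 TPM (IRF1).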
